A study of Mus musculus with 4 samples.

Results

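The genes described here are members of the interleukin-1 (IL-1) family and of the inflammasome, chosen as a list of 10 by name: the cytokine genes Il1a, Il1b, Il33 and Il18, the antagonist gene Il1rn, the receptor genes Il1r1, Il1r2 and Il1rl1, the sensor gene Nlrp3 and the protease gene Casp1. Of the 10, 9 had a probe set that the array annotation assigns to 1 symbol alone, out of 22180 genes named in this way, and each of the 9 had exactly 1 such probe set. Il1rl1, which encodes the IL-33 receptor, was not named by that annotation and is not analysed here.

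RNA came from colon of C57BL/6 mice aged 3 months and was measured on 4 Affymetrix whole-transcript arrays. All mice carried ApcF/+ and the label CDX2, and were either Dmt1+/+ (wild-type in what follows) or Dmt1F/F (F/F in what follows). Dmt1, with the symbol Slc11a2, encodes an iron importer, Apc is the tumour suppressor that restrains Wnt signalling, and F is the usual mark of a loxP-flanked allele. The labels do not name the Cre that acts on these alleles or the cells in which it acts. There was 1 array each for normal colon and for tumour in each genotype, and the series' design text gives 7 animals for the wild-type and 4 for the F/F genotype without saying whether RNA was pooled. No group had a replicate, so a difference between 2 arrays has no estimate of its error. Where 4 values follow each other below, normal colon comes first and tumour second, and within each tissue wild-type precedes F/F.

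IL-1 alpha and IL-1 beta are inflammatory cytokines that signal through the same receptor, IL1R1, to NF-kB and so raise neutrophil-attracting chemokines and prostaglandin synthesis. IL1RN is a secreted antagonist of that receptor and IL1R2 is a decoy that binds the cytokines without signalling. IL-1 beta and IL-18 are made as inactive precursors that caspase-1 cuts after an inflammasome, such as that built on NLRP3, has assembled, so their mRNA levels do not measure the active cytokines. IL-33 is a nuclear alarmin of barrier and stromal cells, and IL-18 is made in quantity by the intestinal epithelium.

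Il1a and Il1b lie next to each other on mouse chromosome 2 and moved together on these arrays, as the values below show, so the 250 bases before the start of each are printed here. Both are on the minus strand of GRCm38.p6 in the RefSeq table, and capitals mark matches to the motifs searched.
Il1a, chr2:129309973-129310222: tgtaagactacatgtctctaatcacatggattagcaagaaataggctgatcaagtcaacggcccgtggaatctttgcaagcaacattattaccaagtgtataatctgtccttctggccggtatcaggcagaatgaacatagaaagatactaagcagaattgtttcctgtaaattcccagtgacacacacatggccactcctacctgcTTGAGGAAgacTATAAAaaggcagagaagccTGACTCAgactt
Il1b, chr2:129371140-129371389: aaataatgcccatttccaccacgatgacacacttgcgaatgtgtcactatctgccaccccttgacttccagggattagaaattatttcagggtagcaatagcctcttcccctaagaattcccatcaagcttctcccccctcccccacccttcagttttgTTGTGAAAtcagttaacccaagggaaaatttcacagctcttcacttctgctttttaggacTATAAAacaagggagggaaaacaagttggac
A TATA box (TATAAA) began 32 bases before the start of Il1a and 31 bases before the start of Il1b, and 13.6% of 32851 RefSeq promoter windows of 300 bases held this motif on either strand. Each also had a match to the C/EBP motif TTNNGNAA, at 43 bases before the start in Il1a and 91 bases before it in Il1b, a motif present in 40.7% of windows. The AP-1 motif TGANTCA was found in Il1a alone of this pair, 12 bases before the start, and in 7.81% of windows. An NF-kB consensus, present in 8.46% of windows, had no match in either. A match is a description of these letters and no measure of binding.

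The values are log2 signals made by the authors with RMA, which brings the arrays to a common distribution before probes are summarised. A level of 4.67, the median over all named genes, stands in for background, and a gene was kept if any array reached it, which left 12060 genes. Of the 9 measured members, 8 were kept: 6 reached the level on every array, Il1a on the tumour arrays only, Il1r2 on the wild-type tumour array only, and Nlrp3 on none. The targeted gene Slc11a2 had F/F minus wild-type differences of -0.38 (normal colon) and -0.45 (tumour). All 8 epithelial markers were above the level on every array, with Epcam, Cdh1 and Krt8 between 10.44 and 11.22. By limma none of the 8 rose in tumour and 2 fell, Krt20 (-0.999, adjusted p = 0.0469) and Vil1 (-0.65, adjusted p = 0.0318), and these were higher in the F/F than in the wild-type tumour, by 0.85 and 0.51. The labels give no position of the pieces along the colon, and the posterior gene Hoxd13 was at 6.86 in wild-type and 3.02 in F/F normal colon but at 8.58 and 8.35 in the tumours.

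The first comparison asked how these genes differ between tumour and normal colon within each genotype. Il1a and Il1b had the largest differences among the 9, followed by Il33, and all of these were larger in wild-type than in F/F mice. Il1rn, Il1r1 and Il1r2 were also higher in both tumours, by less. Casp1 was lower in both tumours, and Il18 was lower in the wild-type tumour alone.

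Il1a was at log2 3.51, 2.84, 7.44 and 4.95. The normal arrays were both below the background level. The tumour differences, 3.92 (15.2-fold) in wild-type and 2.11 (4.32-fold) in F/F, are therefore uncertain in size. Il1b was at 5.98, 5.11, 9.24 and 7.22. Both tumours were above both normal arrays, by 3.25 (9.53-fold) in wild-type and 2.11 (4.31-fold) in F/F mice. Only 44 of the 12060 kept genes had a difference as high as that of Il1b in wild-type, and 130 in F/F.

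Il1rn, the receptor antagonist, was at 6.18, 5.71, 7.23 and 6.67. Its tumour differences were close in size in the genotypes, 1.05 in wild-type and 0.96 in F/F. They were smaller than the differences of either agonist in both genotypes.

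Among the receptors, Il1r1 was at 7.20 and 6.98 in wild-type and F/F normal colon and at 7.69 and 7.58 in the tumours. The tumour arrays were higher by 0.49 and 0.60, and 22.0% and 14.2% of kept genes had differences as high. The decoy Il1r2 was at 3.75 and 3.61 in normal colon and at 5.08 and 4.27 in wild-type and F/F tumour. It passed the level filter through the wild-type tumour alone, where it had to be high, and its differences of 1.34 and 0.66 are descriptions of values near background.

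Il33, the alarmin, was at 4.91 and 4.99 in wild-type and F/F normal colon, just above the background level, and at 7.51 and 6.65 in the tumours. Both tumours were clearly above both normal arrays, with differences of 2.60 (6.07-fold) in wild-type and 1.66 (3.16-fold) in F/F. Il18 had a flat profile by contrast, at 9.37, 9.29, 8.83 and 9.31. The wild-type tumour was the low array, by -0.54 against its normal colon, whereas F/F tumour and normal colon differed by 0.01.

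Casp1, the protease that matures IL-1 beta and IL-18, was at 10.32, 10.46, 9.49 and 9.91. Both tumours were below both normal arrays, with differences of -0.83 and -0.55. Nlrp3 was between 3.14 and 3.85 on all arrays, below the background level, and its differences of 0.70 and 0.18 are uncertain in size and direction.

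**Figure D1:**
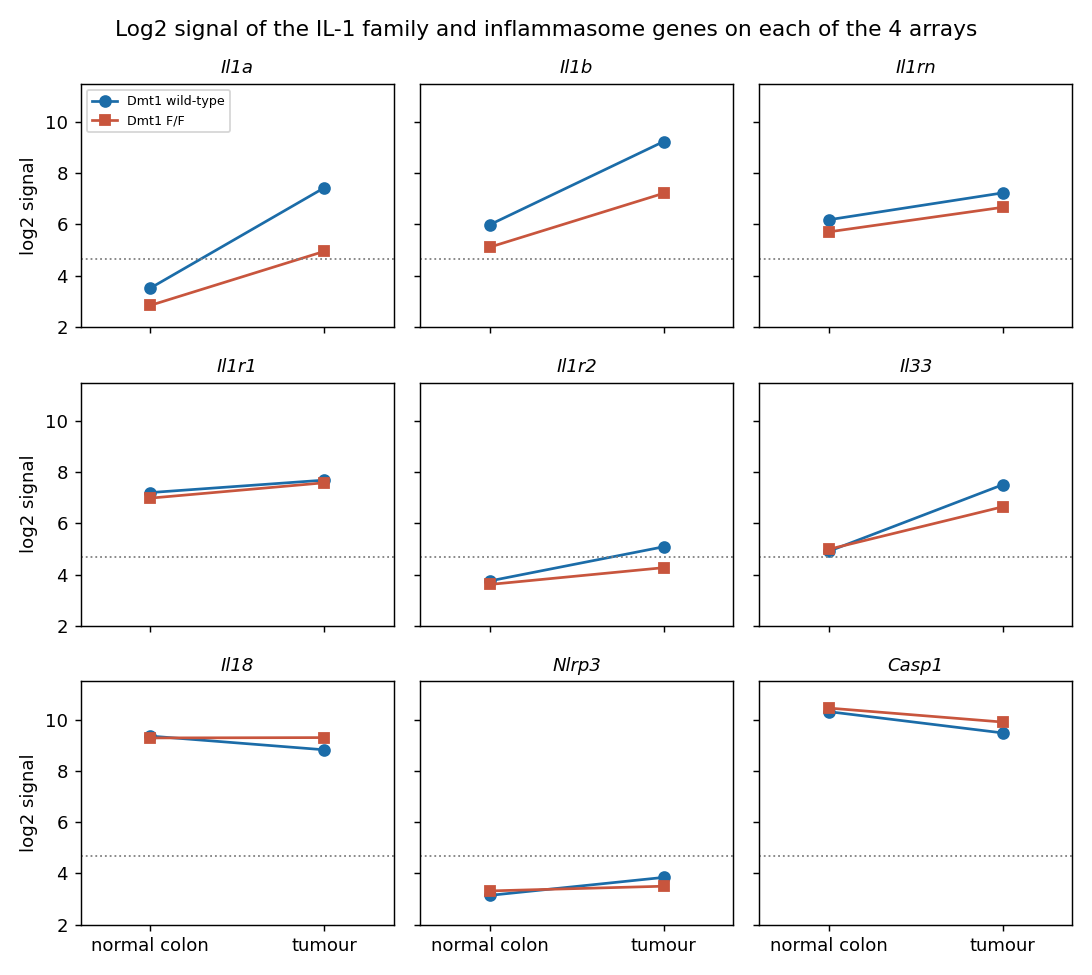
Log2 signal (vertical axis) of the 9 measured genes in normal colon and tumour, with 1 array per point, wild-type as circles and F/F as squares. The lines join the arrays of a genotype and the dotted line is the background level of 4.67. Il1a, Il1b and Il33 climb in both genotypes and reach a higher value in the wild-type tumour, and Casp1 is lower in both tumours.

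By size, 5 of the 9 measured members (Il1a, Il1b, Il33, Il1r2 and Il1rn) were higher by 2-fold or more in the wild-type tumour, where 6.56% of kept genes were. In F/F mice 3 of 9 (Il1a, Il1b and Il33) were, against 5.98% of kept genes. Il1a was kept through the tumour arrays alone and Il1r2 through the wild-type tumour alone, so both had to be higher there. Nlrp3, among the 9, was not kept, and these counts are descriptions. No member was lower by 2-fold in either genotype, against 5.31% and 3.81% of kept genes. The median over the 9 members was 1.05 in wild-type and 0.66 in F/F, and over kept genes 0.08 and 0.04. Il1rn stood at the threshold, with 0.97 after quantile normalization and 0.95 after cyclic loess in wild-type mice.

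**Figure D2:**
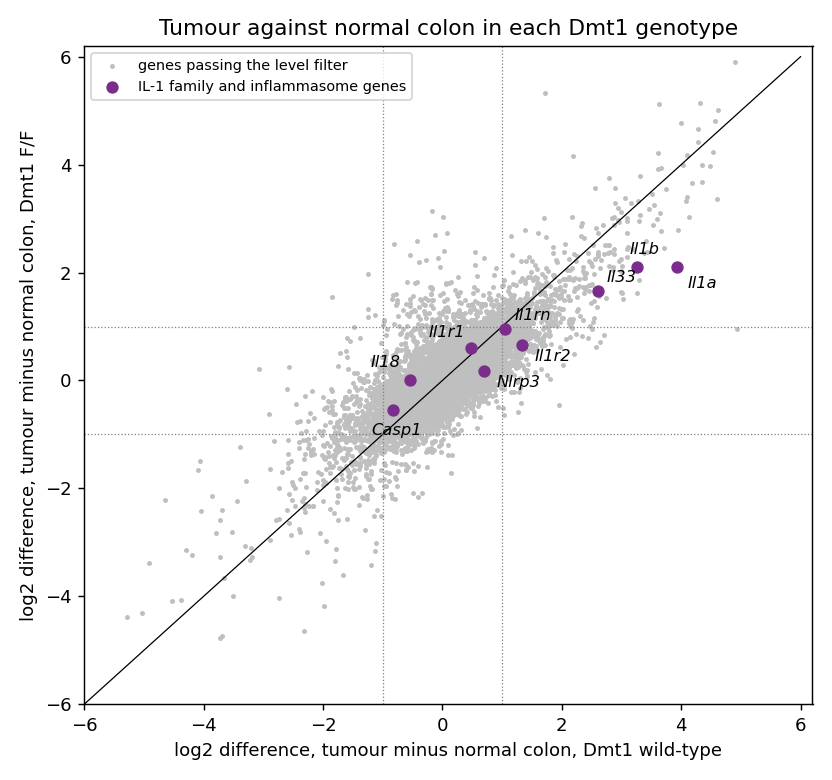
Log2 difference between tumour and normal colon in wild-type (horizontal) and F/F mice (vertical), with kept genes in grey and the 9 measured members in purple. Dotted lines mark a 2-fold difference and the solid line equal differences. Il1a, Il1b and Il33 lie beyond the 2-fold lines in both genotypes and under the line of equal differences.

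An additive model of tissue and genotype over the 4 arrays, fitted with limma to all 12060 kept genes, gave the only test that these arrays allow. It sets the mean tumour difference over both genotypes against an error that joins the gene's own residual with a variance typical of kept genes. The residual has 1 degree of freedom and measures how far that difference varies between genotypes, not between animals. The typical variance has 3.4 prior degrees of freedom, so the standard errors and p-values below rest mostly on other genes. Il1b rose by 2.68 (SE 0.30, adjusted p = 0.015) and Il1a by 3.02 (SE 0.47, adjusted p = 0.0254). Il1a was kept through the tumour arrays alone, where it had to be high, so its call supports nothing beyond its values; limma's adjusted p was 0.0219 when no gene was filtered. Il33 rose by 2.13 (SE 0.26, adjusted p = 0.0173) and Il1rn by 1.01 (SE 0.12, adjusted p = 0.0174), each higher in 2 of 2 tumour arrays. Il1r1 rose by 0.54 (SE 0.12, adjusted p = 0.0454), a call that was lost in 4 of 6 alternative fits, with adjusted p up to 0.0689. Casp1 fell by 0.69 (SE 0.12, adjusted p = 0.0302), lower in both tumours, and had limma's adjusted p = 0.0569 without a trend in the variance prior.

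Il1r2 (0.996, SE 0.29, adjusted p = 0.0791) and Il18 (-0.26, SE 0.17, adjusted p = 0.309) did not pass limma's test. Nlrp3, fitted without the level filter, had 0.44 (SE 0.19, adjusted p = 0.225). In all, 5 members rose and 1 fell, where limma called 11.0% of kept genes as risen and 8.23% as fallen. The risen share of all calls, 57.3%, was 46.9% after cyclic loess. These arrays mix cell types, and a change in the number of cells of a type cannot be told apart from a change in RNA per cell.

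The normal colon arrays of both genotypes were set against each other to ask whether the Dmt1 genotype goes with these genes outside the tumour. Il1b was lower in F/F normal colon by -0.87 (1.83-fold) and Il1a by -0.67, with 1.55% and 2.94% of kept genes as low, although both Il1a values were below background. Il1rn was lower by -0.47 and Il1r1 by -0.22. Il1r2 (-0.14), Il18 (-0.07), Il33 (0.08), Casp1 (0.14) and Nlrp3 (0.17) differed little. None of the 9 was 2-fold higher or lower, where 0.713% and 0.904% of kept genes were.

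In tumours the same comparison gave larger differences. Il1a was lower in the F/F tumour by -2.48 (5.60-fold), and only 2 of the 12060 kept genes, itself included, were as low. Il1b was lower by -2.02 (4.06-fold), and 5 kept genes were as low. Il33 (-0.86), Il1r2 (-0.82) and Il1rn (-0.56) were lower by less, and 0.871%, 1.03% and 3.20% of kept genes were as low. Il1r2 was kept through the wild-type tumour alone and had to be lower in F/F, so its value is a description.

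Il1r1 (-0.10) differed little between the tumours. Il18 and Casp1 were higher in the F/F tumour, by 0.48 and 0.43, with 7.80% and 9.24% of kept genes as high. Of the 9 measured members, 2 were lower by 2-fold or more, against 0.506% of kept genes, and none was higher, against 1.70%. The member median was -0.56, where that of kept genes was -0.02.

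**Figure D3:**
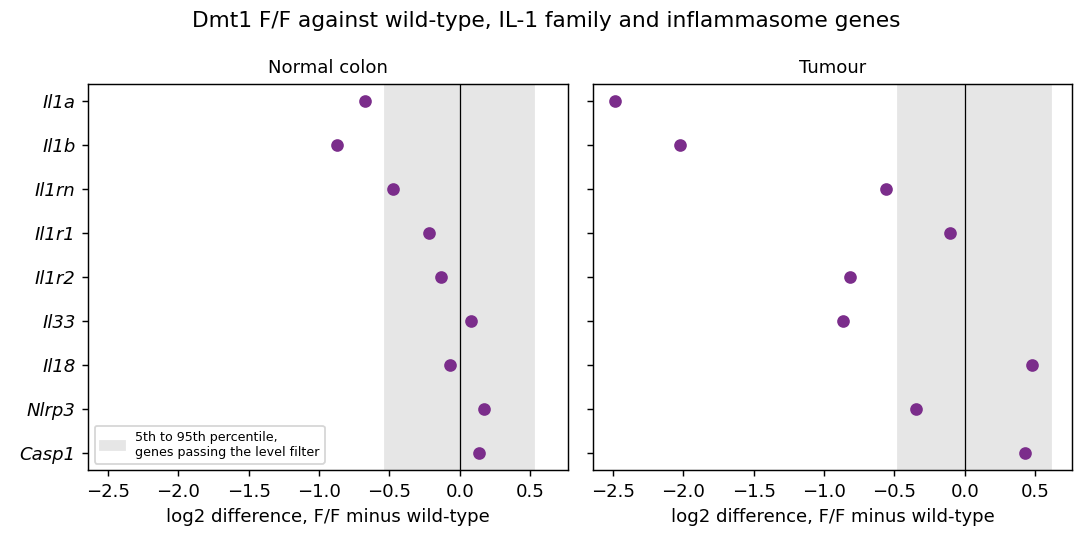
Log2 difference between F/F and wild-type mice in normal colon (left) and tumour (right), with 1 point per measured member. The grey band spans the 5th to the 95th percentile of kept genes, -0.53 to 0.53 in normal colon and -0.47 to 0.61 in tumour. Il1a and Il1b lie below the band in both tissues, and Il33, Il1r2 and Il1rn below it in tumour. Il1r2 was kept through the wild-type tumour alone and had to be lower in the F/F tumour.

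Over both tissues, limma's genotype term gave -1.45 for Il1b (SE 0.30, adjusted p = 0.523), -1.58 for Il1a (SE 0.47, adjusted p = 0.564) and -0.52 for Il1rn (SE 0.12, adjusted p = 0.523), each lower in 2 of 2 F/F arrays. None of these passed. Limma called 0 of 12060 genes for genotype, in either direction (0% of kept genes), and 991 had an unadjusted p under 0.05, among them Il1a, Il1b and Il1rn, 3 of the 8 members tested. The genotype differences are therefore sizes on single arrays that the test did not separate from its error.

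The genotype difference in tumour less that in normal colon was -1.81 for Il1a, -1.15 for Il1b and -0.94 for Il33, and 14, 95 and 206 of the kept genes had values as low. For Il1rn it was -0.09, so this gene was lower in F/F by a like amount in both tissues. Il18 had 0.55 and Casp1 0.29. These values are the residual of the additive model and have no test.

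The posterior gene Hoxd13, which separated the normal arrays by -3.84, differed by -0.23 between the tumours, and Hoxb13 by -1.25 and 0.28. The tumours were not alike in every such gene, as Cdx2 differed by 0.92 between the normal arrays and by 1.39 between the tumours. The wild-type normal array was also set as the baseline for the F/F tumour, an alternative chosen after seeing the data. With it 3 members remained higher by 2-fold or more: Il33 by 1.74, Il1a by 1.44 and Il1b by 1.23. Il1a was kept through the tumour arrays alone and had to be higher.

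The other genes of the pathway come from lists chosen with earlier results of these data known, and are described by counts. Of 5 further ligands of the family, the IL-36 genes and Il1f10, 1 was kept (Il1f6, the IL-36 alpha gene) and its tumour differences were 0.27 in wild-type and -0.01 in F/F. Of 8 further receptors and decoys 4 were kept, and none passed limma's test for tissue. Il1rl2, the IL-36 receptor, was nearest at 0.89 (limma's adjusted p = 0.0562). It was kept through the tumour arrays alone, at 4.88 on each, and had to be higher there. The accessory chain Il1rap was flat, at -0.08 in wild-type and -0.27 in F/F. The receptor genes Il1r2, Il1r1, Il1rl2, Il1rl1, Il18r1 and Il18rap follow each other on chromosome 1 in the RefSeq table, and of the 3 of this run that were kept only Il1r1 passed.

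In the signalling list, 21 of 24 genes were measured and kept. By limma, 3 of the 21 rose in tumour, where 11.0% of kept genes did, and none fell: the NF-kB subunits Rel (0.84, adjusted p = 0.0326) and Rela (0.68, adjusted p = 0.0353), and the kinase Ikbkb (0.62, adjusted p = 0.0363). The adaptor Myd88, which links the receptors to the IRAK kinases, had -0.18 in wild-type and -0.19 in F/F. None of the 21 was 2-fold apart between genotypes in either tissue, and the list median between tumours was -0.11.

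Among 27 other inflammasome genes 26 were measured and 21 kept, of which 4 fell and 1 rose in tumour by limma, against 8.23% and 11.0% of kept genes. The sensor Nlrp6 fell by 1.32 (adjusted p = 0.0182), the gasdermin Gsdme by 0.96 (adjusted p = 0.0453), the adaptor Pycard by 0.91 (adjusted p = 0.0454) and Naip5 by 0.83 (adjusted p = 0.0433), the last from a family of near-identical copies whose probes may share signal. Gsdma, a skin gasdermin with close mouse paralogs, rose by 3.30 (adjusted p = 0.00349). Gsdma was kept through the tumour arrays alone and Gsdme through the normal arrays alone, so their directions were partly set by the filter; without it limma's adjusted p was 0.00208 and 0.0358. In wild-type mice 6 of the 21 were lower by 2-fold or more and in F/F mice 2, against 5.31% and 3.81% of kept genes. Nlrp1b, among the 6, was kept through the wild-type normal array alone and had to be lower. Gsdme, among the 2, had to be lower too, so these counts are descriptions.

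Pycard, which joins the sensors to caspase-1, was at 7.60, 7.45, 6.36 and 6.88. Its order over the arrays was that of Casp1 in that both tumours were below both normal arrays and the wild-type tumour was lowest. Gasdermin D, the pore former cut by caspase-1, differed by -0.06 and -0.05 between tumour and normal colon.

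Of 25 genes that IL-1 is known to induce, all were measured and 19 kept, and by limma 10 rose in tumour and none fell, against 11.0% and 8.23% of kept genes. Those with the largest mean differences were the collagenase Mmp13 at 4.38 (adjusted p = 0.0101), the lipocalin Lcn2 at 3.55 (adjusted p = 0.00381), the chemokine Cxcl5 at 3.19 (adjusted p = 0.00381) and Il23a at 2.79 (adjusted p = 0.00522). Il23a was kept through the tumour arrays alone and had to be higher there, so its call supports nothing beyond its values. In the wild-type tumour 15 of the 19 were higher by 2-fold or more and in F/F 10, against 6.56% and 5.98% of kept genes, with list medians of 2.13 and 1.13. Of the 19, 8 passed the level filter through tumour arrays alone, among them 4 of the 10 that rose, so these counts are descriptions. Other signals induce these genes too.

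Between the tumours, 9 of these 19 genes were lower in F/F by 2-fold or more and none higher, against 0.506% and 1.70% of kept genes, with a median of -0.98. Acod1 and Cxcl3, both among the 9, were kept through the wild-type tumour alone and had to be lower in F/F. The chemokine Ccl3 (-2.10), the itaconate enzyme Acod1 (-2.09), the acute-phase gene Saa3 (-1.58) and Cxcl2 (-1.45) differed most. Ptgs2, which makes prostaglandins, was at 6.47, 5.51, 9.20 and 8.01. Of the 19, only Vcam1 was higher in the F/F tumour, by 0.49.

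Downstream of IL-33, 12 of 13 type 2 genes were measured and 10 of these stayed below the background level on every array, the cytokine genes Il4, Il5 and Il13 among them. The other 2 were Arg1, kept through tumour arrays alone, with tumour differences of 2.14 in wild-type and 0.81 in F/F, and the eosinophil chemokine Ccl11, with -0.07 and -0.70. Downstream of IL-18, 4 of 10 type 1 genes were kept and Ifng was not. The chemokine Cxcl9 rose in tumour by 1.25 (adjusted p = 0.0147 by limma). The granzyme gene Gzmb was lower in both tumours, by -0.76 and -1.96, and did not pass (limma, -1.36, adjusted p = 0.0544).

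Markers of immune cells did not all move with these genes, and their part in the differences was not tested. Between the tumours the median F/F minus wild-type difference of kept markers was -1.10 for neutrophils and -1.09 for mast cells. It was -0.15 for macrophages and monocytes, 0.51 for general leukocytes and 1.69 for B cells. Of 16 neutrophil markers 12 were kept, and Mpo, Elane, Camp and Ngp, genes of neutrophil granules, were below background throughout. The median of the 12 was at 3.77, 3.85, 5.85 and 4.59. Between the tumours 8 of 12 were lower in F/F by 2-fold or more, where 0.506% of kept genes were, with S100a8 at -1.90 and the G-CSF receptor Csf3r at -1.12. Of these 8, 6 (S100a8 and Csf3r included) were kept through the wild-type tumour array alone and had to be lower in F/F, so the count is a description. The gene Ly6g, which has close paralogs, was the only one higher, by 0.83. Their summed linear signal over all 16, of which Ly6g is a large part, was 511.5, 312.2, 1006.4 and 842.4.

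Of 16 macrophage and monocyte markers, 15 were measured and 13 kept, with medians of 5.72, 5.41, 6.35 and 6.37. Between the tumours 10 of the 13 were lower in F/F, none by 2-fold, with Lyz2 at -0.56 and Cd14 at -0.57. The median over kept genes was -0.02. The summed signal of this list was 1100.3, 765.3, 1804.5 and 1486.7. Of 6 general leukocyte markers, 5 were higher in the F/F tumour, Ptprc by 1.10, and all 9 measured B cell markers were, by a median of 1.69. Among 5 kept mast cell markers, 3 (Hdc, Mcpt2 and Mcpt1) were lower in the F/F tumour by 2-fold or more, where 0.506% of kept genes were. Of the others, Cpa3 was lower by -0.99 and Kit went the other way, higher by 0.39. Kit also fell in tumour by limma (-0.95, adjusted p = 0.0242). Hdc and Mcpt2 were kept through the wild-type tumour alone and had to be lower in F/F. The markers Tpsb2, Tpsab1, Fcer1a, Ms4a2 and Mcpt4 were below background on all arrays.

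Markers of the tissue around the epithelium moved as well, and their part in the differences was not tested. Against normal colon, all 6 smooth muscle markers were lower by 2-fold or more in the wild-type tumour and none in F/F. Of kept genes 5.31% and 3.81% were, and the marker medians were -1.99 and -0.52. Between the tumours all 6 were higher in F/F, by a median of 0.67. Of 8 fibroblast markers 5 rose in tumour by limma and 1 fell, the matrix gene Dpt, against 11.0% and 8.23% of kept genes. Of 9 kept entries of the T and NK cell list 1 rose and 4 fell by limma, beside the same shares of kept genes. The listed T cell gene Trac was matched by a synonym to Abcg5, which is no T cell marker and did not pass (limma, adjusted p = 0.202). Among those that fell, Cd8a, Gzma and Klrd1 were kept through normal arrays alone. Il7r, which rose, was kept through tumour arrays alone, so the filter partly set the directions of these genes. In all, 4 of the 9 were kept through normal arrays alone.

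**Figure D4:**
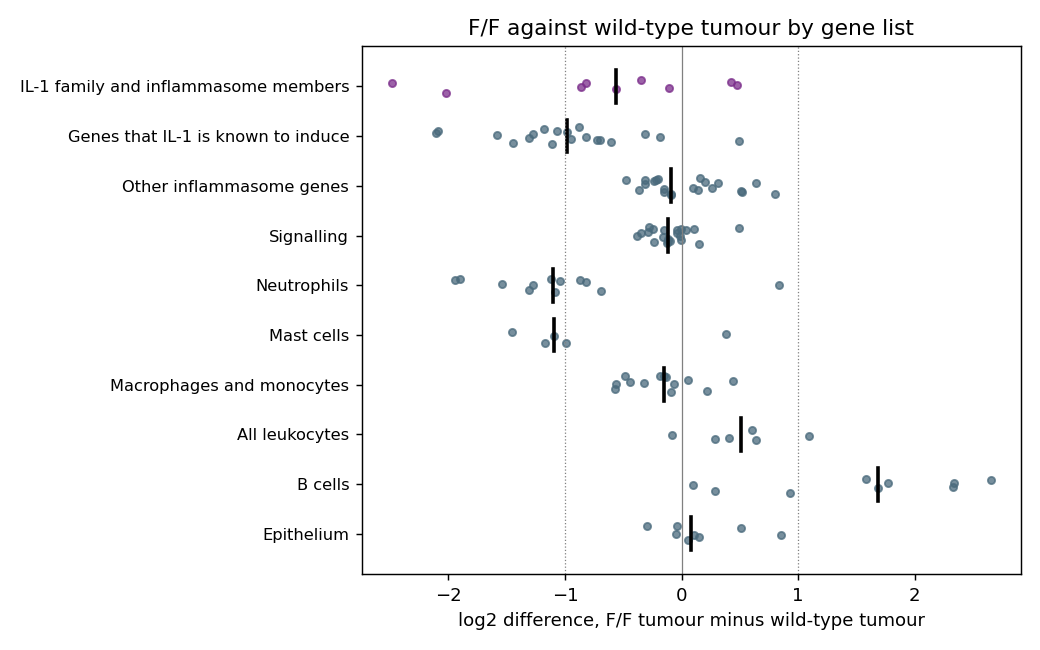
Log2 difference between F/F and wild-type tumour for the 9 measured members and for the kept genes of 9 lists, with 1 point per gene, black bars at list medians and dotted lines at 2-fold. Points are spread vertically only to keep them apart. The median is -0.98 for genes that IL-1 induces, -1.10 for neutrophil markers, -0.15 for macrophage markers and 1.69 for B cell markers.

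The genes whose profile was most like that of each member were found by the Euclidean distance over the 4 arrays between values centred on each gene's mean. For Il1b they were Ptgs2 (distance 0.60), the keratin Krt36 (0.61) and the macrophage elastase Mmp12 (0.61). For Il1a they were the neutrophil gene Retnlg (0.85), Cxcl5 (0.90) and the zinc transporter Slc30a2 (0.94), so no kept gene outside the list came as near to Il1a as those listed for the other members. Il1rn was nearest to Mpzl1 (0.03), Cxcl16 (0.10) and the integrin Itgam (0.11), and Il33 to Cep112it (0.10), R3hdml (0.15) and Serpinb11 (0.15). Il18 was nearest to Arhgap26 (0.02), Coq8a (0.03) and Rora (0.04), and Casp1 to Slc22a18 (0.03), Tmem189 (0.03) and Foxo3 (0.04). With 4 arrays many genes share a profile, and these distances are descriptions.

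A further probe set on the Il1b locus, that of the antisense transcript Il1bos, was at 4.48, 4.55, 4.39 and 4.49. It stayed below the background level and showed none of the tumour difference of Il1b.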

How the data were processed

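Values were log2 signals deposited by the authors, 1 per probe set and array, made with RMA and the oligo package, as the submitters' processing notes list; versions and a genome build are not given in the sources used here. RMA corrects background, brings arrays to one distribution and then summarises probes, so it gives no detection call and lessens differences in total signal. The medians of the deposited values still differed, at 4.30, 4.27, 4.34 and 4.34. The number of arrays, 1 per group and 4 in all, limits the precision.

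Of 41345 probe sets, 23521 had exactly 1 gene in the platform annotation, 1814 several and 16010 none. Gene IDs of 23328 matched RefSeq (GRCm38.p6), which gave symbols and promoter windows. Each gene is represented by its brightest probe set on average, and genes reaching log2 4.67, the median gene level, on any array were kept. A log2 difference of 1 (2-fold) counted as a difference in size. Limma 3.58.1 (R 4.3.3) fitted tissue and genotype as additive terms with eBayes and a trend (1 residual and 3.4 prior degrees of freedom). Benjamini-Hochberg adjustment was at 0.05 over 12060 genes. The code was also run on simulated data. These were additive and drawn from the fit's own variance prior, so they say nothing of spread between animals. Adjusted p-values are limma's.

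The members and lists were chosen with earlier results of these data known. Named genes are all members, and from each list the largest differences past 2-fold or limma's threshold, with a few others given for their role. Alternatives were median centring, quantile normalization, cyclic loess, the mean of probe sets, no level filter and eBayes without a trend.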

Additional observations from a re-analysis of the deposited data

Results flagged for a closer look

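The genotype difference had opposite signs in the 2 tissues for 3 members, each on 1 array per group, and the difference between tissues was not tested. Il33 was at 0.08 in normal colon and -0.86 in tumour, F/F minus wild-type. Il18 was at -0.07 in normal colon and 0.48 in tumour. Nlrp3 was at 0.17 in normal colon and -0.34 in tumour, below the background level on all arrays. The tumour difference of Il18 had opposite signs in the genotypes, -0.54 in wild-type and 0.013 in F/F, also untested, and the F/F value was -0.064 with each array centred on its median and -0.010 after cyclic loess.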

How the results depend on the processing

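Of 66 values of the member counts under alternatives, 65 stayed within 1.5 times the main count or at 0, and 1 did not. The count of members that fell in tumour by limma went from 1 (Casp1) to 0 with eBayes without a trend. The F/F tumour set against the wild-type normal array also had 3 members higher by 2-fold. No paired analysis was possible because the labels give no replicate numbers and each group has 1 array, so no array could be left out either. The tumour calls of Il1a (kept through the tumour arrays alone), Il1b, Il33 and Il1rn held in all 7 fits, with limma's adjusted p at most 0.0386, 0.0271, 0.0302 and 0.0303. The share of all limma tumour calls that rose was 57.3% and became 47.5% after quantile normalization and 46.9% after cyclic loess. No member called at 2-fold changed direction under any alternative.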
